A study of Homo sapiens with 6 samples.

Results

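The regions described here are nuclear matrix-attached regions whose centre lay inside a gene that does not code for protein, outside the body of every protein-coding gene and more than 1 kb from any boundary of such a gene. They were chosen by position alone, on the 22 autosomes, with the gene biotypes of the RefSeq table for GRCh38. They came to 12954 of 114173 autosomal regions summed over 3 lists, and 115751 regions on all chromosomes. The human embryonic stem cell line H1, which is pluripotent and can give rise to all germ layers, was assayed in 3 groups of 2 samples: no treatment (hPSC), an shRNA (short hairpin RNA, which lowers its target by RNA interference) directed at HNRNPU (shHNRNPU), and an shRNA directed at LUC (shLUC), taken here as the control hairpin. All groups were the same line grown without feeder cells, so the results hold for 1 line, and the lists carry no measure of how far HNRNPU was lowered. In this assay, MAR-seq, nuclei were opened with detergent, fixed with formaldehyde and cut with MspI, HaeIII, RsaI, AluI, BamHI and PvuII, and the DNA that stayed with the matrix was sequenced.

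The nuclear matrix is the mesh of protein and RNA that remains when soluble material has been washed from a nucleus, and the DNA bound to it is thought to anchor chromatin loops. HNRNPU, also called scaffold attachment factor A, is an abundant nuclear protein that binds both DNA and RNA and takes part in holding long non-coding RNAs (lncRNAs) near chromatin. Non-coding genes make many of the RNAs found in that mesh, which include lncRNAs that stay at their own locus, hosts of microRNAs and small nucleolar RNAs, and transcribed pseudogenes.

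The authors deposited 1 list of positions per group, with each region 400 bp wide and no height or p-value. Region names of the hPSC list hold the unexplained tag rp1, so this list may stand for 1 sample or for both, and what sets hPSC apart from the hairpin lists cannot be told apart from that. No spread between the 2 samples of a group could therefore be computed and no test was run. The intervals below are 95% Wilson intervals for shares and exact Poisson intervals for densities, and both cover counting error only. The read depth behind the lists is unknown, so a longer list can reflect more reads as well as more attachment, and these cannot be told apart.

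The hPSC list held 4506 such regions among 39526 autosomal regions, a share of 11.4% (11.1 to 11.7). The shLUC list held 4435 of 38860, again 11.4% (11.1 to 11.7), and the shHNRNPU list held 4013 of 35787, 11.2% (10.9 to 11.5). The share was thus nearly the same in the 3 lists. The number fell by 9.52% from shLUC to shHNRNPU, while all autosomal regions together fell by 7.91%.

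The name of the class holds by the biotypes of the table, with limits. Genes typed as lncRNA held 86.7% of the hPSC regions, 86.4% of the shLUC regions and 86.6% of the shHNRNPU regions. Most others lay in pseudogenes, transcribed or not. The antigen receptor loci, which the table does not type as protein-coding although their joined segments encode antibodies and T cell receptors, held 48, 49 and 38 regions in hPSC, shLUC and shHNRNPU. Provisional lncRNA genes with a LOC symbol held 49.8%, 49.3% and 50.2% of the regions in the same order, so many of the genes have no described product.

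Sequence was at hand for the start windows of lncRNA genes, not for the regions themselves, and these windows are shown because within lncRNA genes the density of regions was highest near starts. Each window runs from 250 bases before to 50 bases after the annotated start, in the 5′ to 3′ direction of the gene, and comes from RefSeq, assembly GRCh38.p14. Capitals mark the sites of the 4 enzymes with 4-base sites (CCGG for MspI, GGCC for HaeIII, GTAC for RsaI and AGCT for AluI). These sites read the same on both strands, and AGCT also lies within the PvuII site CAGCTG. The first set holds windows overlapped by a region of all 3 lists. They are LINC02746 (chr11:92915579-92915878, minus strand, 188 bases covered by all 3 lists), MIR550A3HG, which hosts a microRNA of the miR-550a family (chr7:29685089-29685388, minus strand, 181 bases covered), LINC00674 (chr17:68101305-68101604, plus strand, 140 bases covered) and LINC01852 (chr15:38072941-38073240, minus strand, 139 bases covered).
LINC02746: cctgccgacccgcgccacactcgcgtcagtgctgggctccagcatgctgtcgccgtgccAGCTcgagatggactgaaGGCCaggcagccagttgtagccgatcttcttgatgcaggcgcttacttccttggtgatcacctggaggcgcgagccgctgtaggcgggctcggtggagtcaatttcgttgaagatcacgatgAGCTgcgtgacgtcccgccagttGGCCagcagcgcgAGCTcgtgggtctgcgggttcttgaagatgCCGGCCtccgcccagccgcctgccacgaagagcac
MIR550A3HG: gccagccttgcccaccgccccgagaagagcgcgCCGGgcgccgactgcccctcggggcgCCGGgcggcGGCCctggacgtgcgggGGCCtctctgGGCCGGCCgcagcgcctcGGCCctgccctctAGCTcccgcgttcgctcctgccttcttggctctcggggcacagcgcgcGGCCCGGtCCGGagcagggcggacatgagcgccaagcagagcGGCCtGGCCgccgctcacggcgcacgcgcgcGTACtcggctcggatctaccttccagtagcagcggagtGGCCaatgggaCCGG
LINC00674: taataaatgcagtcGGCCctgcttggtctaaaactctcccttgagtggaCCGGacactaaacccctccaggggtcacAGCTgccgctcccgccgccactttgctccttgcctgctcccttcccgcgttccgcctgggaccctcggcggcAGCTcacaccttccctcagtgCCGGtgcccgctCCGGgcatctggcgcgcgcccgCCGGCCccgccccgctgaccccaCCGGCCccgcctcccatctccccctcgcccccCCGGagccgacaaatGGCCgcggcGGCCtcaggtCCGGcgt
LINC01852: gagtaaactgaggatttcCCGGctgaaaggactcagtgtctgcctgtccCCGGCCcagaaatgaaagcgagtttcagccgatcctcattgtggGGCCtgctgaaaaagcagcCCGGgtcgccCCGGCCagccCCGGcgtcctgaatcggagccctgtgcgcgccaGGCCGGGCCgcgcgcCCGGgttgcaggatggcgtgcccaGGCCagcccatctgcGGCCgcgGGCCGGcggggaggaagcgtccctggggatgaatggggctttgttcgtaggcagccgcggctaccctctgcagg
The region over LINC00674 had identical coordinates in the 3 lists, chr17:68101465-68101864, and it also covered 282 bases of the start window of its divergent neighbour LOC124904048. GC content was between 64.3% and 76.3% in these 4 windows, and the 4 enzymes had 7 sites in LINC02746, 17 in MIR550A3HG, 14 in LINC00674 and 16 in LINC01852.

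The second set shows windows that lay wholly inside a region of both hairpin lists and had no hPSC region. MIR142HG (chr17:58332471-58332770, minus strand, 71.3% GC) hosts miR-142, a microRNA of blood cells, and LINC02521 (chr6:2634250-2634549, plus strand, 66.7% GC) is an intergenic lncRNA.
MIR142HG: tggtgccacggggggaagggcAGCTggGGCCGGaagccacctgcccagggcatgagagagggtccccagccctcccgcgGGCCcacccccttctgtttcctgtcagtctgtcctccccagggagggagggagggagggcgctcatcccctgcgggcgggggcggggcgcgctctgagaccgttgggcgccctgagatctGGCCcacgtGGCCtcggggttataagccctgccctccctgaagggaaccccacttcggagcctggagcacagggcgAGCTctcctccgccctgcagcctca
LINC02521: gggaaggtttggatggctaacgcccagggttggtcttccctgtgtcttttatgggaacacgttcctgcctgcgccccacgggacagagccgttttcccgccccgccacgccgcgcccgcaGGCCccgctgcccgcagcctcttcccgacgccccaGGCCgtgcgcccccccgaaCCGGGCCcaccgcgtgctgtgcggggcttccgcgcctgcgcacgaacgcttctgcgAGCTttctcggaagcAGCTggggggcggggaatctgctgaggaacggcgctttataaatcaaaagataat
The third set shows windows wholly inside an hPSC region with no hairpin region. MEF2C-AS2 (chr5:88675968-88676267, plus strand, 51.7% GC) is an antisense gene that starts inside MIR9-2HG, described further on, and MIR200BHG (chr1:1162627-1162926, plus strand, 72.7% GC) hosts miR-200b, a microRNA of epithelial cells.
MEF2C-AS2: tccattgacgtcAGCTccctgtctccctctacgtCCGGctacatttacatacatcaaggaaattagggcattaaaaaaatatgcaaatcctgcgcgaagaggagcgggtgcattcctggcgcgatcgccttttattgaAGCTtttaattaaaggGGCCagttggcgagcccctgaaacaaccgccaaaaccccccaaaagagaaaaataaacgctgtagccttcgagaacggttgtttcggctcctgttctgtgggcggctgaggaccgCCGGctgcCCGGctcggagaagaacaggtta
MIR200BHG: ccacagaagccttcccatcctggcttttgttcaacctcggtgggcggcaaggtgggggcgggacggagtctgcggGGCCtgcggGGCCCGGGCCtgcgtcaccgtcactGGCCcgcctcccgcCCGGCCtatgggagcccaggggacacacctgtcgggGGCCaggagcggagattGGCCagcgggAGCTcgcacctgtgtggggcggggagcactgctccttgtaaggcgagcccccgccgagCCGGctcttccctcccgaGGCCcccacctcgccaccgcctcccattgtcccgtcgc
The last set gives windows of genes that held no region in any list, for contrast. MALAT1 (chr11:65497488-65497787, plus strand, 73.7% GC) makes an abundant RNA of nuclear speckles, and IPW (chr15:25116295-25116594, plus strand, 31.3% GC) lies in the imprinted Prader-Willi region.
MALAT1: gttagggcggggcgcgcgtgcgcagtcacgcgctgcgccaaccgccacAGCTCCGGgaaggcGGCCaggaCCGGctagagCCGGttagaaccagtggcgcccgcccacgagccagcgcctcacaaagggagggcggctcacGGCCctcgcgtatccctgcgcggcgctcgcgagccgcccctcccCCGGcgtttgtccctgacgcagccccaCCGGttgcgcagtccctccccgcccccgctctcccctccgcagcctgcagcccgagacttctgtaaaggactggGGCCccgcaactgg
IPW: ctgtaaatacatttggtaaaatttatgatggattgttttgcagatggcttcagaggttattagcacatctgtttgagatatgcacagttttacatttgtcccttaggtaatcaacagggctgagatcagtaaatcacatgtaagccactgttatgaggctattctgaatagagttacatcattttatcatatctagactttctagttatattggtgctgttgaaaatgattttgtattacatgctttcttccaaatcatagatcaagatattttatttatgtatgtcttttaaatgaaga
IPW had no site of the 4 enzymes, whereas MALAT1 had 9, so a window rich in GC and cut sites could also be without a region.

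Over all start windows the same contrast was seen. The table gave windows for 11145 of 17795 autosomal lncRNA genes, and 6208 of them lay wholly over 1 kb from any protein-coding gene. Regions overlapped 211 of these windows in hPSC, 107 in shLUC and 104 in shHNRNPU, and 23 windows were overlapped in all 3 lists. Median GC content was 46.0% in the 5913 windows with no region. It was 58.3% in the 167 windows with an hPSC region and no hairpin region, 65.5% in the 60 windows with a region of both hairpin lists and no hPSC region, and 66.7% in the 23 windows of all 3 lists. The windows with regions were therefore richer in GC, and those of the hairpin lists lay higher than those of hPSC alone.

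Sites of MspI, whose recognition sequence contains a CpG, followed the same order. They occurred in 30.2% of windows with no region, 68.9% of the hPSC windows, 80% of the hairpin windows and 95.7% of the windows of all 3 lists, against 62.6% of all 26246 autosomal windows of the table, which include those of protein-coding genes. HaeIII sites were found in 61.7%, 85.0%, 90.0% and 95.7% of the 4 groups and in 78.8% of all windows. RsaI sites, which hold fewer G and C, did not follow this order, with 34.6%, 31.7%, 16.7% and 30.4%, and 29.7% of all windows. AluI sites were found in 75.6%, 82.0%, 75% and 69.6%, and in 73.8% of all windows. GC content and the sites of MspI and HaeIII moved together with the presence of a region, whereas the sites of RsaI and AluI did not follow this order. The part of GC content and cut sites in the lists was not tested.

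**Figure D1:**
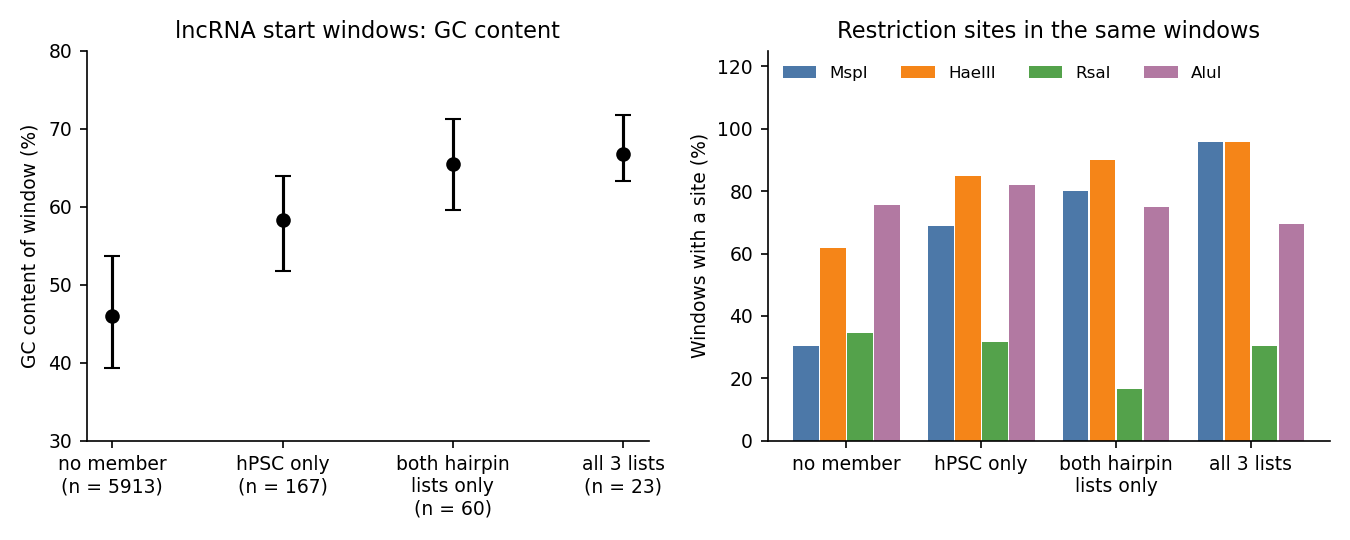
Start windows of lncRNA genes over 1 kb from protein-coding genes, grouped by the lists that have a region there. Left, GC content in percent, with the median as a point and the quartiles as bars: the median was 46.0% with no member, 58.3% for hPSC only, 65.5% for both hairpin lists only and 66.7% for all 3 lists. Right, percent of windows with at least 1 site of MspI, HaeIII, RsaI or AluI: MspI rose from 30.2% to 95.7% across the groups and RsaI did not rise.

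The autosomal territory open to these regions, that is the bases of non-coding genes over 1 kb from protein-coding genes, was 392.6 Mb, or 13.7% of the 2873.9 Mb from the first to the last base of the autosomes, assembly gaps included. Density in it was 11.5 regions per Mb (11.1 to 11.8) in hPSC, 11.3 (11 to 11.6) in shLUC and 10.2 (9.91 to 10.5) in shHNRNPU. Non-coding genes lay between the interior of protein-coding genes and the space outside all genes in each list. The interior of protein-coding genes had 13.6, 15.4 and 13.9 regions per Mb in the same order, and the space outside all genes had 9.34, 9.23 and 8.38. Density in non-coding genes was thus 0.846 times that of protein-coding interiors in hPSC and 0.736 times in both hairpin lists. The interiors leave out the 1 kb around protein-coding gene boundaries, whereas non-coding genes keep their own starts and ends. These ratios therefore do not compare like parts of genes. Density in non-coding genes was 1.22 to 1.23 times that outside genes. The space outside genes includes assembly gaps, where no region can lie, so this ratio is raised to an unknown extent. All these classes stayed far below the 1 kb around protein-coding gene boundaries, with 108.8, 71.9 and 73.8 regions per Mb.

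Density varied with place. By chromosome it was lowest on chromosome 4 in every list, with 9.20 regions per Mb in hPSC, 8.99 in shLUC and 7.96 in shHNRNPU, and highest on chromosome 22 in hPSC (16.7) and on chromosome 17 in shLUC (16.5) and shHNRNPU (15.8). All regions of chromosome 4 together had 11.9, 11.4 and 10.4 per Mb in the same order, against 13.8, 13.5 and 12.5 over all autosomes. Those of chromosome 17 had 17.9 in shLUC and 16.4 in shHNRNPU, and those of chromosome 22 had 13.5 in hPSC. Density in non-coding genes also declined with distance from protein-coding genes. In hPSC it was 16.4 per Mb (15.1 to 17.8) at 1 to 10 kb, 14.6 (14.0 to 15.2) at 10 to 100 kb, 9.13 (8.66 to 9.62) at 100 to 500 kb and 6.19 (5.54 to 6.90) beyond 500 kb. The hairpin lists had the same order, from 15.4 to 7.24 in shLUC and from 14.0 to 6.64 in shHNRNPU. Of pairs of neighbouring regions, 90 of 4484 in hPSC (2.01%), 91 of 4413 in shLUC (2.06%) and 67 of 3991 in shHNRNPU (1.68%) were under 5 kb apart, against 3.07%, 3.06% and 2.46% over all autosomal regions.

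Sharing between the lists divided the hairpin lists from hPSC. Among shLUC regions in non-coding genes, 3172 of 4435 (71.5%, 70.2 to 72.8) overlapped a shHNRNPU region by at least 1 bp, against 70.9% of all autosomal shLUC regions. All 3172 had the same coordinates in both lists. Seen from shHNRNPU the share was 79.0% (77.8 to 80.3), against 77.0% of all autosomal regions. Sharing between the hairpin lists in non-coding genes was thus near that of the whole lists.

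Far fewer regions were shared with untreated cells. Of the hPSC regions, 505 (11.2%, 10.3 to 12.2) overlapped a shLUC region and 559 (12.4%, 11.5 to 13.4) a shHNRNPU region, against 14.0% and 15.6% of all autosomal hPSC regions. From the other side, 511 shLUC regions (11.5%, 10.6 to 12.5) and 560 shHNRNPU regions (14.0%, 12.9 to 15.1) overlapped an hPSC region, against 14.2% and 17.3% of all. These shares lay below those of the whole lists, which include the starts and ends of protein-coding genes, where 29.6% of hPSC regions had a shLUC partner. For shLUC partners, protein-coding interiors (10.4%, 9.92 to 10.9) and the space outside genes (9.72%, 9.19 to 10.3) had slightly lower shares of hPSC regions than non-coding genes. The interval of the interiors overlapped that of non-coding genes. For shHNRNPU partners they had 12% (11.5 to 12.5) and 11.5% (10.9 to 12.1), both with intervals that overlap that of non-coding genes. The interiors leave out gene boundaries and non-coding genes do not. Of hPSC regions over 1 kb from the boundaries of non-coding genes, 9.64% (8.72 to 10.7) had a shLUC partner and 10.8% (9.87 to 11.9) a shHNRNPU partner.

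**Figure D2:**
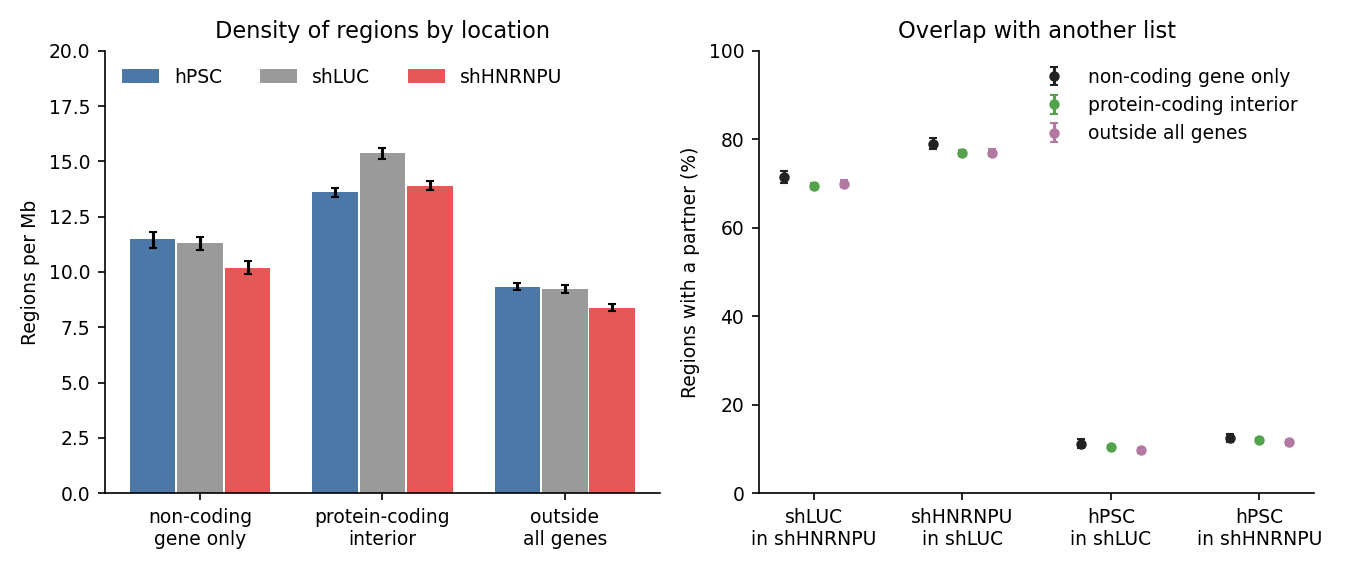
Left, regions per Mb in non-coding genes only, in the interior of protein-coding genes and outside all genes, for the 3 lists; bars start at 0 and error bars are exact Poisson 95% intervals. Right, percent of regions of 1 list that overlap a region of another, for the same 3 locations, with Wilson 95% intervals. Hairpin lists share over 69% of their regions with each other in each of these locations, and hPSC shares under 13% with either.

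Identical coordinates were also found between lists with few shared regions. Of the 505 hPSC regions with a shLUC partner, 198 matched it to the base, and of the 559 with a shHNRNPU partner, 256 did. How the lists came to share exact positions is not given in the sources used here, and the pairs that match to the base may not be separate calls. Left out of the count, sharing of hPSC with shLUC was 6.81%, and with shHNRNPU 6.72%. The same exclusion would leave no sharing between the hairpin lists, since all 3172 of their pairs match to the base. The contrast between hairpin and hPSC sharing therefore rests on pairs that may not be separate calls.

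Only 319 hPSC regions (7.08%) were found in both hairpin lists, and 3761 (83.5%) were in no other list, against 9.79% and 79.4% on the rest of the autosomes. In shLUC, 1076 (24.3%) were in that list only, and in shHNRNPU, 605 (15.1%), against 24.6% and 16.4% on the rest of the autosomes. The shares of the hairpin lists lay near those elsewhere. Those of hPSC differed, with 6.37 to 7.87 against 9.49 to 10.1 for regions in both hairpin lists. For regions in no other list the intervals were 82.4 to 84.5 against 79 to 79.9. The rest of the autosomes includes the 1 kb around protein-coding gene boundaries. There 29.6% of hPSC regions had a shLUC partner and 31.6% a shHNRNPU partner. In protein-coding interiors (10.4% and 12%) and outside genes (9.72% and 11.5%) these shares were no higher than in non-coding genes (11.2% and 12.4%). Whether the hPSC difference remains without those boundaries was not tested. Hairpin regions that the other hairpin list lacked were found in hPSC more often than those both held. Among regions of both hairpin lists, 324 of 3172 (10.2%, 9.21 to 11.3) had an hPSC partner. The share was 187 of 1263 (14.8%, 13.0 to 16.9) for shLUC regions without a shHNRNPU partner and 236 of 841 (28.1%, 25.1 to 31.2) for shHNRNPU regions without a shLUC partner. On the rest of the autosomes these shares were 14.1%, 15.7% and 29.6%. The order was set by pairs that match to the base, 86, 112 and 170 of the 3 counts, since without them 7.50%, 5.94% and 7.85% remained.

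Regions were denser within 1 kb of a boundary of the non-coding genes than over all their territory, which had 11.5, 11.3 and 10.2 per Mb in hPSC, shLUC and shHNRNPU. The shortest genes lie wholly within 1 kb of a boundary. Within 1 kb of either boundary lay 918 hPSC regions (20.4%), 692 shLUC regions (15.6%) and 629 shHNRNPU regions (15.7%), at 28.5, 21.5 and 19.5 per Mb. Where strand was known, the first kilobase of lncRNA genes held 51.6 regions per Mb (46.1 to 57.4) in hPSC, 32.1 (27.8 to 36.8) in shLUC and 28.0 (24.0 to 32.4) in shHNRNPU. The last kilobase held 15.1 (12.4 to 18.2), 10.5 (8.26 to 13.1) and 9.52 (7.42 to 12), against 11.2, 10.9 and 9.93 over all lncRNA territory. Density was thus higher at starts than at ends, and at starts it was higher in hPSC than in either hairpin list. At ends the hairpin lists lay no higher than over all lncRNA territory, and only hPSC lay above it. In the first 500 bp density reached 74.2 per Mb (64.9 to 84.4), 40.8 (34.0 to 48.5) and 37.3 (30.8 to 44.7).

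**Figure D3:**
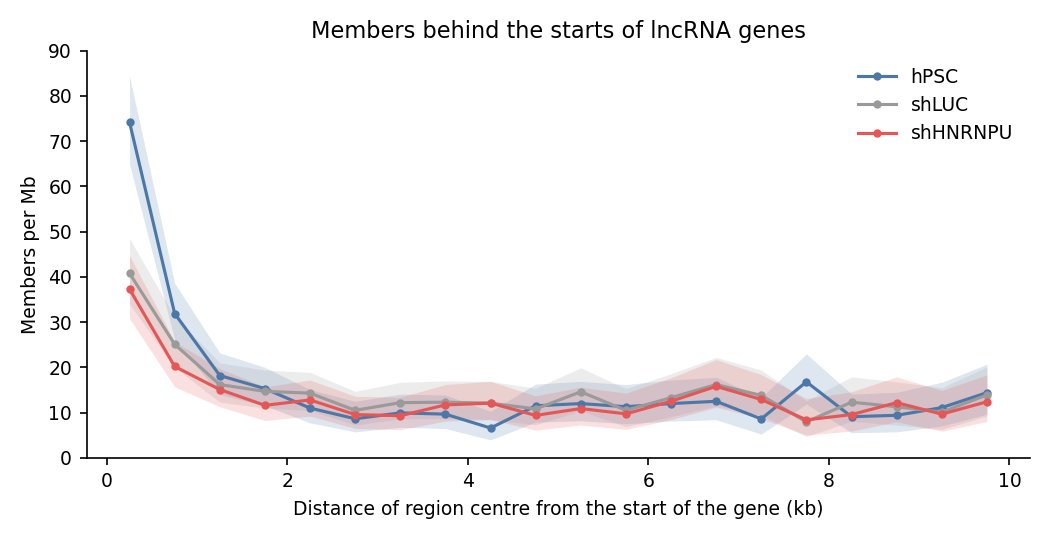
Regions per Mb in bins of 500 bp by the distance of the region centre from the start of stranded lncRNA genes, inside the gene, from 0 to 10 kb; lines are the 3 lists and shaded bands exact Poisson 95% intervals. All lists are highest in the first bin, at 74.2 (hPSC), 40.8 (shLUC) and 37.3 (shHNRNPU) per Mb, and lie at similar levels beyond 2 kb.

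Regions near starts were also the ones most often shared with untreated cells. Among shLUC regions within 1 kb of a start, 30.4% (24.5 to 37.0) overlapped an hPSC region, against 8.78% (7.69 to 10.0) of those farther inside the same genes. In shHNRNPU the shares were 35.4% (28.7 to 42.7) and 10.7% (9.41 to 12.1). Sharing between the hairpin lists did not differ in this way, with 71.6% (65.0 to 77.3) of shLUC regions near starts and 71.3% (69.4 to 73.1) of the others in shHNRNPU.

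Of 25967 non-coding genes with territory, 5319 (20.5%) held a region in at least 1 list and 1247 in all 3. By list, 3388 genes (13.0%) held one in hPSC, 3235 (12.5%) in shLUC and 3023 (11.6%) in shHNRNPU. Most genes held a single region, 2551, 2390 and 2288 of them. The hairpin lists had 2587 genes in common, 80% of the shLUC genes and 85.6% of the shHNRNPU genes. Untreated cells and shLUC had 1511 in common, 44.6% of the hPSC genes and 46.7% of the shLUC genes. Regions at different places in a gene also make it shared, so genes are shared more often than positions largely by construction. Of the 5319 genes, 1648 (31%) held regions in hPSC only and 1340 (25.2%) in both hairpin lists only. The same shares over all autosomal genes were not computed, and most genes held a single region. These shares of genes are therefore not read as a trait of non-coding genes.

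Holding a region followed gene length. Of the 348 genes over 200 kb, 85.9% held a region in hPSC, 88.5% in shLUC and 85.9% in shHNRNPU, while of the 18158 genes of at most 10 kb 4.35%, 3.81% and 3.50% did. Per Mb the order was the other way: genes of at most 10 kb had 20.5, 18.1 and 16.5 regions per Mb and genes over 200 kb 8.15, 8.87 and 7.98. Regions that lay in more than 1 non-coding gene were counted for each, and these were 8.06%, 7.51% and 7.50% of the regions of hPSC, shLUC and shHNRNPU.

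Among the kinds of gene with much territory, pseudogenes had the highest density. Untranscribed pseudogenes, copies of genes that no longer make a protein, had 15.5 regions per Mb (13.8 to 17.4) in hPSC, 16.7 (14.9 to 18.7) in shLUC and 15.3 (13.6 to 17.2) in shHNRNPU, above the 11.2, 10.9 and 9.93 of lncRNA genes. There were 9319 of them in 18.6 Mb, against 13339 lncRNA genes in 350.2 Mb. All non-coding genes of at most 10 kb had 20.5, 18.1 and 16.5 per Mb, and kinds of gene were not compared at like length. Transcribed pseudogenes had 13.6, 13.7 and 12 per Mb and were shared more with untreated cells, since 70 of 319 shLUC regions (21.9%, 17.8 to 26.8) in them overlapped an hPSC region, against 10.8% (9.83 to 11.8) in lncRNA genes. Pseudogenes resemble their parent genes and other copies, so reads from a copy can be placed in them and these positions are uncertain. Antisense lncRNA genes had 13.6, 13.3 and 11.6 per Mb, and divergent transcripts 11.7, 12.1 and 10.7.

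Genes of tRNAs and small nuclear RNAs were overlapped more often in untreated cells, and genes of microRNA hairpins were not. Here any base of a region over the gene was counted, since these genes are mostly shorter than a region, as long as its centre lay over 1 kb from protein-coding genes. Regions overlapped 48 of 352 tRNA genes (13.6%, 10.4 to 17.6) in hPSC, 4 (1.14%, 0.443 to 2.88) in shLUC and 11 (3.12%, 1.75 to 5.51) in shHNRNPU. For the genes of small nuclear RNAs, which form the spliceosome, the counts were 17 of 106 (16.0%, 10.3 to 24.2), 3 (2.83%, 0.967 to 7.99) and 7 (6.60%, 3.24 to 13.0). Intervals of hPSC and shLUC did not overlap in either class. Many of these genes exist in near-identical copies, which makes the placing of reads uncertain. TERC (chr3:169764610-169765060), the RNA template of telomerase, held 1 region in each list. Genes of microRNA hairpins were overlapped in 4 of 578 cases in hPSC (0.692%, 0.269 to 1.77), 11 in shLUC (1.90%, 1.07 to 3.38) and 12 in shHNRNPU (2.08%, 1.19 to 3.59), with intervals that overlap.

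Genes with the most regions were long. LOC124902439, a provisional lncRNA of 820.4 kb at chr10:63872589-64692939, held 12 regions in hPSC, 15 in shLUC and 12 in shHNRNPU. In it 12 of the 15 shLUC regions were also in shHNRNPU, whereas 3 of the 12 hPSC regions were in a hairpin list. PVT1, the lncRNA beside MYC that is often amplified in tumours, held 11, 10 and 11 in 306.7 kb, and 3 of its 11 hPSC regions were in a hairpin list. Both genes thus had like counts in the 3 lists at mostly different places in hPSC. The immunoglobulin loci IGL (13, 13 and 8) and IGH (5, 16 and 10) and the T cell receptor locus TRB (12, 9 and 6) were also among the genes with the most regions. Over all receptor loci, 2 of 48 hPSC regions (4.17%, 1.15 to 14.0) had a shLUC partner.

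Per length, the 6 densest genes among those with at least 20 kb of territory and 6 regions had 21.9 to 33 kb of territory. A floor on the number of regions favours genes near the floor of territory, so their small size is no result. LINC01461 at chr1:84597964-84621031 held 2, 3 and 3 regions in hPSC, shLUC and shHNRNPU, which is 34.7 per 100 kb (15.0 to 68.3) summed over the lists. The pseudogenes ESPNP (3, 2 and 3; 27.6 per 100 kb), SERPINB9P1 (1, 3 and 2; 27.5) and CROCCP2 (4, 1 and 2; 25.7) followed with the lncRNAs LOC105378283 (2, 3 and 4; 27.3) and LOC124901494 (2, 2 and 2; 25.2). Their intervals were wide and overlapped each other. The hPSC regions of ESPNP and CROCCP2 had no partner in the hairpin lists, and both hPSC regions of LOC105378283 and of LOC124901494 did.

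Between the hairpin lists a gene was called where its counts differed by at least 2 regions and 2-fold, a rule of size that carries no p. By it 28 of 3671 non-coding genes had more regions in shHNRNPU than in shLUC (0.763%, 0.528 to 1.10), against 1.58% of all autosomal genes, and 86 had fewer (2.34%, 1.90 to 2.88), against 3.49%. All genes include long protein-coding ones, which hold more regions and can pass the rule more easily. The same rule applied to the pair of lists without HNRNPU knockdown called 349 of 5112 non-coding genes with more regions in hPSC than in shLUC (6.83%), against 8.40% of all genes, and 355 with fewer (6.94%), against 9.71%. Calls between untreated and shLUC cells were thus more frequent than calls between the hairpin lists, and both comparisons share the shLUC list.

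The largest falls from shLUC to shHNRNPU were in IGH (16 to 10), IGL (13 to 8), MIR9-2HG (5 to 1), LOC105377448 (7 to 3) and LINC01317 (8 to 4). MIR9-2HG, also known as LINC00461, hosts a precursor of miR-9, a microRNA of neural progenitors, and lies at chr5:88538266-88691041. Its hPSC regions numbered 6, between 5.49 and 30.9 kb from the start, and 2 of them overlapped shLUC regions, 1 with identical coordinates. The region kept in shHNRNPU lay 88.3 kb from the start and was identical in shLUC. The largest rises were in LINC02994, in the neighbourhood of NKX6-1 (3 to 6, with 6 in hPSC), LOC105378178 (2 to 5, with 9 in hPSC), LOC105373936 (1 to 3) and LOC124904486 and RASA4CP (0 to 2 each). A rise of 2 regions was met by 36 genes in all, so the last names are a choice among ties. In LOC124904486 1 of the shHNRNPU regions was also in hPSC.

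Some genes held regions mostly in untreated cells, and others mostly in the hairpin lists. OBI1-AS1, antisense to the replication factor gene OBI1, held 8 regions in hPSC and none in shLUC or shHNRNPU, over 562.5 kb (chr13:78054855-78617325). LINC02331, 98.9 kb from BMP4, a signalling gene of early development, held 6, 0 and 0. LOC105376214 (9, 2 and 2), LINC01122 (9, 2 and 3) and the T cell receptor locus TRA (11, 5 and 5) followed. The largest deficits were in LOC105370802 at chr15:45705195-45931069 (0, 9 and 9), IGH (5, 16 and 10), LOC101928923 (1, 9 and 6), LOC107986777 (3, 9 and 9) and CALCRL-AS1, antisense to a peptide receptor gene of vessels (0, 6 and 6). The hairpin lists mostly held the same positions in them: 8 of 9 shLUC regions of LOC105370802, 9 of 9 of LOC107986777 and 6 of 6 of CALCRL-AS1 were also in shHNRNPU. Genes with the most positions in all 3 lists held 2 such regions each, as in TEKT4P2, OVOS2P, LOC107985126, LOC107986930 and LOC729732, and 8 genes tied at that count.

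**Figure D4:**
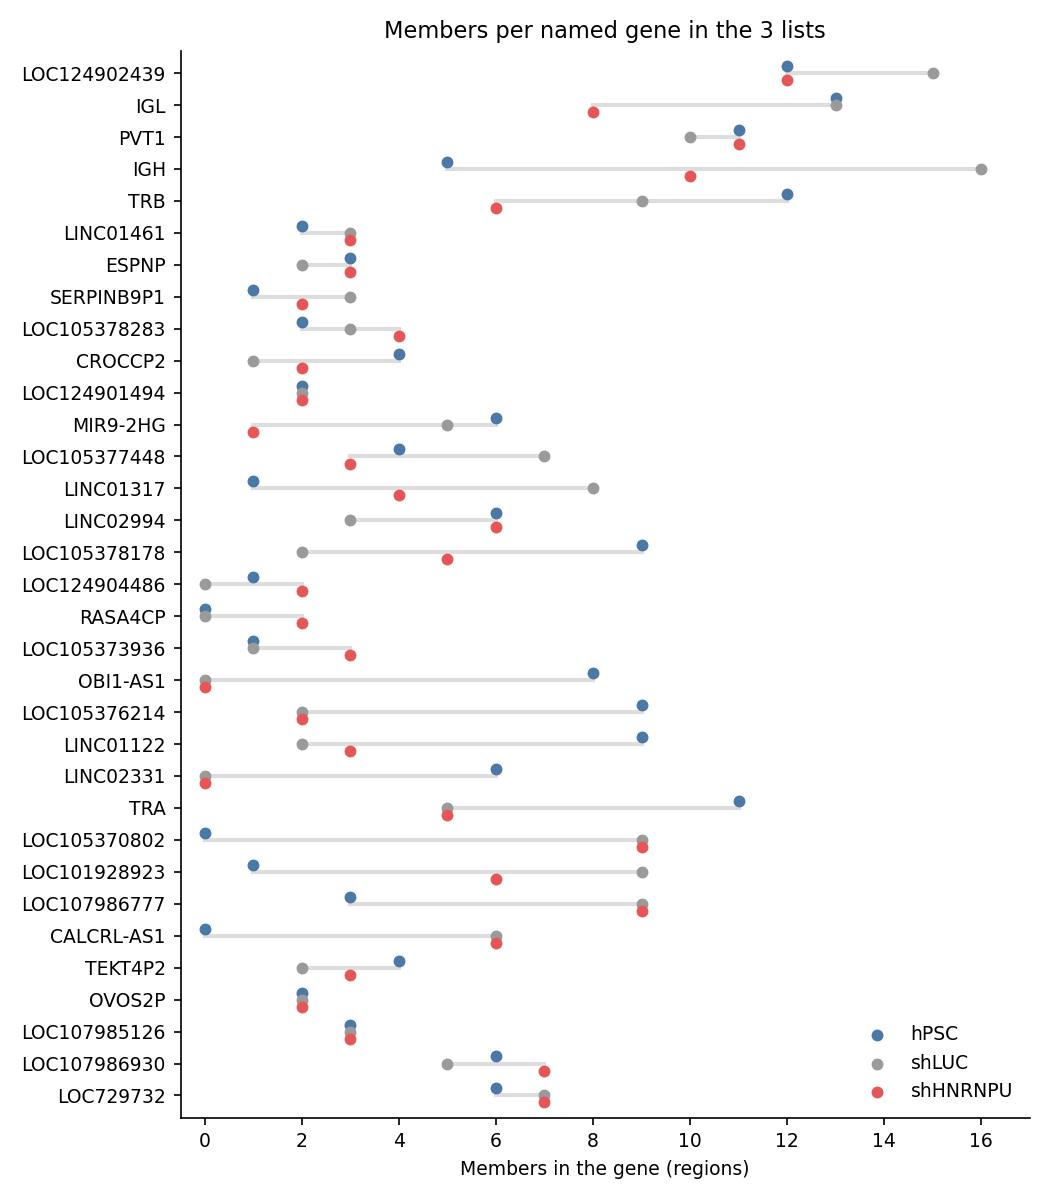
Number of regions (members) inside each named non-coding gene in hPSC, shLUC and shHNRNPU; each point is 1 list, set slightly apart in height, and the grey line spans the 3 counts. In OBI1-AS1 and LINC02331 hPSC stands at 8 and 6 with both hairpin lists at 0, in LOC105370802 and CALCRL-AS1 hPSC is at 0, and PVT1 and LOC107985126 have like counts in the 3 lists.

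Gene lists with a known role gave the following counts, beside 13.0% of all non-coding genes with a region in hPSC, 12.5% in shLUC and 11.6% in shHNRNPU. The median gene of all had 2.51 kb of territory and no region, so lists of longer genes hold a region more often, and densities are given as well, beside the 11.5, 11.3 and 10.2 per Mb of all non-coding genes. The intervals of the lists include the density of all non-coding genes in the same group, with the exception of the neural and developmental list in shLUC. Of 16 microRNA host genes, 9, 11 and 10 held a region in hPSC, shLUC and shHNRNPU, with 25, 30 and 20 regions in all and a median territory of 46.0 kb. Their density was 12.6 (8.17 to 18.6), 15.2 (10.2 to 21.6) and 10.1 (6.17 to 15.6) per Mb. MIR99AHG, which hosts miR-99a and let-7c, held 4, 7 and 4, and MIR100HG 6, 5 and 4. MIR17HG, host of the growth-promoting miR-17-92 cluster, held 2 regions in each hairpin list and none in hPSC, at 0.531 and 0.948 kb from its start. MIR137HG had the same counts. MIR155HG, host of an immune microRNA, held 1 region with the same coordinates in all 3 lists, chr21:25562170-25562569.

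Of 13 snoRNA host genes, which carry small nucleolar RNAs in their introns, 2, 3 and 3 held a region. They held 2, 7 and 8 regions in all, 4.89 (0.592 to 17.7), 17.1 (6.88 to 35.2) and 19.6 (8.44 to 38.5) per Mb, with a median territory of 3.67 kb. SNHG14 held 1, 5 and 5 of them. It also stood in the list of imprinted genes, where 3, 3 and 2 of 14 held a region, at 5.41 (1.11 to 15.8), 12.6 (5.07 to 26) and 10.8 (3.97 to 23.5) per Mb. DANCR, a host linked to keeping cells undifferentiated, held 1 region in shLUC and 2 in shHNRNPU, and the region at its start (chr4:52712422-52712821) overlapped an hPSC region whose centre lay outside the gene. Hosts such as GAS5, SNHG1 and SNHG5, which are short and highly expressed, held none.

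Of 7 genes linked to pluripotency, 4, 4 and 3 held a region, with 10, 15 and 12 regions in all. That is 10.4 (4.98 to 19.1), 15.6 (8.72 to 25.7) and 12.5 (6.44 to 21.8) per Mb, over a median territory of 17 kb. SOX2-OT, the transcript in whose body the pluripotency gene SOX2 lies, held 3, 9 and 7, and 7 of its 9 shLUC regions were in shHNRNPU while 1 of its 3 hPSC regions was in a hairpin list. LINC01108 held 1 region at chr6:14280776-14281175 in each list. LINC-ROR and LINC00458, both transcribed in pluripotent cells, held none in any list. LINC-PINT, an lncRNA induced by p53, held 5, 4 and 4, and its 4 shLUC regions were all in shHNRNPU.

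Of 8 genes in a list made for nuclear-retained lncRNAs, which also holds NORAD and GAS5, RNAs found largely in the cytoplasm, 4, 4 and 3 held a region. Density was 23.5 (10.7 to 44.6), 20.9 (9.01 to 41.1) and 15.6 (5.74 to 34.1) per Mb, over a median territory of 26.4 kb. NORAD held 1 region in hPSC only and GAS5 none. MALAT1 held none in any list, and NEAT1, the scaffold of paraspeckles, held 1 in hPSC only. MIAT held 2 in hPSC, 2 at other positions in shLUC and none in shHNRNPU. Of 14 neural and developmental genes, 8, 8 and 7 held a region, with 21, 29 and 22 in all, or 14.2 (8.82 to 21.8), 19.7 (13.2 to 28.3) and 14.9 (9.36 to 22.6) per Mb over a median territory of 36.2 kb. RMST, a neural lncRNA that binds SOX2, held 1, 4 and 3, OTX2-AS1 held 4, 1 and 0, and FENDRR, a regulator of mesoderm, held 0, 2 and 3. In the neural list hPSC had the highest count in OTX2-AS1, MIR9-2HG (6, 5 and 1) and LINC01551 (1, 0 and 0). It had the lowest in RMST, SOX2-OT, FENDRR and SOX1-OT (2, 4 and 5). DLX6-AS1 held 2, 2 and 1, and NR2F1-AS1 held 2 in each list. Of 9 long genes of uncertain function 6, 7 and 7 held a region, at 9.86 (6.38 to 14.5), 9.46 (6.06 to 14.1) and 7.49 (4.51 to 11.7) per Mb over a median territory of 332.5 kb. Among them were CASC15 (8, 8 and 7), LINC01572 (4, 3 and 2) and LINC02267 (0, 6 and 3). In CASC15 6 of 8 shLUC regions were in shHNRNPU and 1 of 8 hPSC regions was in a hairpin list.

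**Figure D5:**
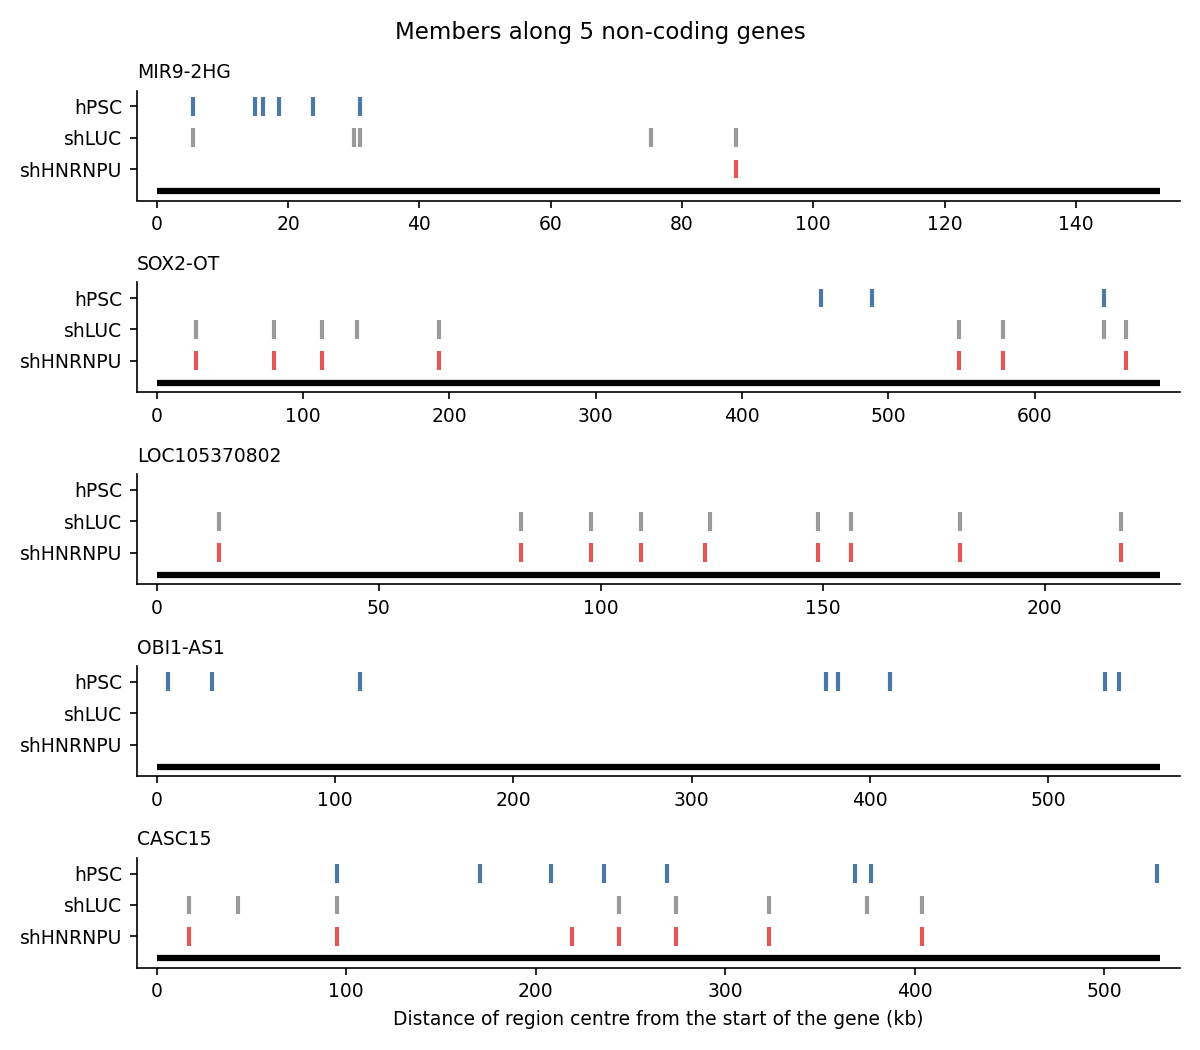
Regions along 5 lncRNA genes, by the distance of the region centre from the start of the gene in kb; each tick is 1 region, rows are the 3 lists and the black bar is the gene. In SOX2-OT, LOC105370802 and CASC15 most shLUC and shHNRNPU ticks stand at the same place, OBI1-AS1 has 8 hPSC ticks and no other, and MIR9-2HG has hPSC ticks in the stretch from 5.49 to 30.9 kb and 1 shHNRNPU tick at 88.3 kb.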

How the data were processed

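H1 cells were assayed by MAR-seq in 3 groups of 2 samples. The authors deposited 1 BED list per group, with positions (chromosome, start, end) and a score column of 0 throughout. How the 2 samples became 1 list, the threshold, the use of the input and the fixed 400 bp width are not given in the sources used here. The submitters' processing notes name cutadapt, Bowtie2, SAMtools, MACS2, deepTools and hg38, with no version. The paper given with the series describes another experiment and supplied style only. Samples of a group are not stated to be separate cultures.

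Positions were used as 1-based GRCh38 coordinates with RefSeq gene boundaries and biotypes; start windows and strand came from RefSeq GRCh38.p14. The members and gene lists were chosen with earlier results of these data known. Overlap needed 1 bp. Named genes were the 6 with most members, the 6 densest, the 5 at each extreme of the shHNRNPU minus shLUC and hPSC minus hairpin counts, the 5 with most positions in all lists, and the list genes; 1 gene that this rule names is not reported here. The start windows printed, TERC and LOC124904048 were chosen after their values were seen. List genes without territory (such as H19, KCNQ1OT1 and ESRG) or protein-coding in the table (TUG1, TUNAR) were not counted. The interval code was tested on simulated lists. Alternatives were another membership rule, gene set and overlap, and, added after seeing the data, identical coordinates not counted and antigen receptor loci left out. Python 3.11.15, pandas 2.3.3, numpy 2.4.6, scipy 1.17.1 and matplotlib 3.10.9 were used.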

Additional observations from a re-analysis of the deposited data

How the results depend on the processing

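No paired analysis was possible because a group has a single list without values for each of its samples, and for the same reason no sample could be left out. Of 156 values recomputed, 109 moved by less than their counting interval or, for counts of genes, by less than 1.5 times, and 47 moved more. Values follow in the order hPSC, shLUC and shHNRNPU. With any base in a non-coding gene counted, the share of regions was 12%, 11.9% and 11.7%, the density 12.1, 11.8 and 10.7 per Mb and the share within 1 kb of a non-coding boundary 25.4%, 19.8% and 20.3%. Over 5 kb from protein-coding genes, the shares of regions were 10.7%, 10.7% and 10.5%, and 19.2% of hPSC regions lay near a boundary. With lncRNA genes only they were 9.88%, 9.87% and 9.71%, with 10.9 per Mb in shLUC and 15.9%, 10.5% and 10.2% near boundaries. Without LOC genes they were 5.89%, 5.87% and 5.72% at 12.3, 12.1 and 10.8 per Mb, in 1643, 1563 and 1473 genes. In that setting 12.3% of hPSC regions had a shLUC partner, 18.1% of shLUC and 18.8% of shHNRNPU regions lay near a boundary, 14 genes had more and 51 fewer regions in shHNRNPU than in shLUC, and 169 had more and 174 fewer in hPSC than in shLUC. Leaving genes out lowers the counts by construction, and the cause of the other moves was not tested.

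With an overlap of at least 50% of both regions, 9.32% of hPSC regions had a shLUC partner and 10.7% a shHNRNPU partner, 5.82% of shLUC regions were in all 3 lists, and 12.9% of shLUC regions without a shHNRNPU partner were in hPSC. With a partner within 1 kb the first 3 values were 12.9%, 13.9% and 8.84%. With identical coordinates not counted, a setting chosen after seeing the data, 6.81% of hPSC regions had a shLUC and 6.72% a shHNRNPU partner, and 5.94% of shLUC and 7.85% of shHNRNPU regions without a hairpin partner were in hPSC. This setting was not applied to sharing between the hairpin lists, where all 3172 pairs are identical. Merging regions under 1 kb apart, or leaving out the antigen receptor loci (also chosen after seeing the data), moved none of these values.

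Read depth is unknown, so list lengths, densities and counts per gene cannot be separated from depth or calling threshold. Strand was known for 11145 of 17795 lncRNA genes, and exons were not used here.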
